A study of Mus musculus with 6 samples.

Results

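Keratin genes were examined in 2 ATAC-seq peak lists from differentiating mouse epiblast stem cells. ATAC-seq inserts sequencing adapters into open chromatin with the Tn5 transposase, and a peak marks a stretch with more insertions than the local background. Members were the peaks whose summit lay nearest to a protein-coding gene with a symbol of Krt and digits only, at most 100 kb away. This gave 276 of 205844 peaks in the FM list and 193 of 139164 peaks in the KO list, at 49 keratin genes of 21887 protein-coding genes. The distance limit did not set the membership, as the farthest member summit lay 22.6 kb (FM) or 23.5 kb (KO) from its gene. The merged lists made 315 regions at keratin genes, of 239675 regions in all.

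The cells were derived from the post-implantation epiblast, kept on irradiated mouse embryonic fibroblasts with bFGF at 10 ng/mL and Activin A at 20 ng/mL, and aggregated into embryoid bodies in serum for 2 days. One group carried inducible Mixl1 and was given doxycycline, 1 µg/mL over 24 h (3 libraries), and the other was Mixl1 knockout (KO, 3 libraries, with no doxycycline recorded). Mixl1 is a homeobox factor of the primitive streak. The sources used here do not give the induced construct, the knockout allele, the parental lines or whether a line was 1 clone. Each group is represented by a single peak list, so no value has a replicate error and no test between the groups could be made. The list beside KO is named FM, a name that no label explains, and stands here for the induced cells because no other group remained. Differences between the lists cannot be told apart from differences between the lines or the effect of doxycycline.

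Fold enrichment below is the height of a peak's summit over the local background, and −log10 q is its significance. Both are the authors' values for each peak within its own list. A region was shared when peaks of both lists overlapped by at least 1 bp, and specific to a list otherwise. Depth in reads is unknown. Peaks were present within 1 kb of an end of Mixl1 itself in both lists (fold 4.26 in FM, 2.97 in KO). Of 7 epiblast marker genes, 5 had a summit within 1 kb of a gene end in FM and 6 in KO, and 71.9% and 69.0% of all protein-coding genes had one. The counts in FM and KO were 5 and 5 of 6 for fibroblast markers, 4 and 4 of 5 for trophoblast, 2 and 3 of 4 for visceral endoderm and 4 and 4 of 5 for stratified epithelium. Those 4 are keratins themselves (Krt1, Krt5, Krt10 and Krt14). Otx2, an epiblast gene, Trp63, the master regulator of stratified epithelium, Afp of the yolk sac and Col3a1 of fibroblasts had no such summit in either list, and Nanog, a pluripotency gene, had one in KO only. The part of these cell types in the keratin values was not tested.

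Keratins are the intermediate filament proteins of epithelia. A filament forms from pairs of an acidic type I and a basic type II keratin, and mouse type I genes lie together on chromosome 11 and type II genes on chromosome 15. Krt18 is the exception, a type I gene beside its type II partner Krt8. Krt8 and Krt18 are the earliest keratins of the embryo, and with Krt7 and Krt19 they serve single-layered epithelia. Most other members serve stratified epithelia, hair follicles and hair shafts, tissues that arise much later.

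The start sites of Krt7, Krt8 and Krt18 lay under peaks of both lists, and the 300 bases around them are shown here beside those of a type I hair gene (Krt31) and a type II hair follicle gene (Krt71) that had no peak there. The sequences are from RefSeq (GRCm38.p6, the assembly that mm10 names), run 5′ to 3′ and hold 250 bases before and 50 from the start site on. Capitals mark TATAAA, the GC box GGGCGG, the AP-2 form GCCNNNGGC, the AP-1 form TGANTCA or the paired homeodomain form (TAAT and ATTA with 3 bases between) on either strand.
Krt7 (chr15:101412153-101412452, plus strand): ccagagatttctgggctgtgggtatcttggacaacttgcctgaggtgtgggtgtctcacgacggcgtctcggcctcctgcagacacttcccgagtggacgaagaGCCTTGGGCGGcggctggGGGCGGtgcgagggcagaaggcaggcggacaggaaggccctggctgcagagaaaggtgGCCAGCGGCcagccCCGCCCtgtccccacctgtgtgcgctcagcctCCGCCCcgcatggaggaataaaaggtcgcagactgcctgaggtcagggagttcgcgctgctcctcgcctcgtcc
Krt8 (chr15:102004293-102004592, minus strand): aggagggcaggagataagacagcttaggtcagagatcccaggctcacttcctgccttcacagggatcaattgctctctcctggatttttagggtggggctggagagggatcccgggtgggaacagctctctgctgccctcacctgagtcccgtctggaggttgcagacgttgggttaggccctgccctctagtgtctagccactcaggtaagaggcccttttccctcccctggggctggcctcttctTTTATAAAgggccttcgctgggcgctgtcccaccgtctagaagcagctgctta
Krt18 (chr15:102027966-102028265, plus strand): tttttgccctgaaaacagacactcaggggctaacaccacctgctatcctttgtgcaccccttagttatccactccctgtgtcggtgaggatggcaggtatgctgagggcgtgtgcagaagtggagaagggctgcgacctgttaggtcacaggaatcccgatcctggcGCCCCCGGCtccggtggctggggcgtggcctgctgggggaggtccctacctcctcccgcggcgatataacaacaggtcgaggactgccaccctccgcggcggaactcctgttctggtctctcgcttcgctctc
Krt31 (chr11:100050502-100050801, minus strand): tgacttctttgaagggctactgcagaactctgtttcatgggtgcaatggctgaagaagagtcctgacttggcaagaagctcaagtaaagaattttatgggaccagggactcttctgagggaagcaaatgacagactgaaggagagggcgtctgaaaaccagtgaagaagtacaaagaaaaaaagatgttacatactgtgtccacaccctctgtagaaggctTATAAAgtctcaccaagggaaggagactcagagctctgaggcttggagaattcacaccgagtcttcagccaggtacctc
Krt71 (chr15:101743048-101743347, minus strand): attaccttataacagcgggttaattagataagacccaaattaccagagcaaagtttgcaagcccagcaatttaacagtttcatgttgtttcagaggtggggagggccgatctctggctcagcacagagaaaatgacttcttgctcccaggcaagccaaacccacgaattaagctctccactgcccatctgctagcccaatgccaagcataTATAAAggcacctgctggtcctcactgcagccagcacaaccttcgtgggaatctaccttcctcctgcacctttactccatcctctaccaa

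Krt7 had 21 CpG and Krt18 had 17 CpG in this window, against 6 in Krt8, 2 in Krt31 and 4 in Krt71. The Krt7 window held 4 GC boxes and 2 AP-2 forms, the first of which overlapped a GC box, and the Krt18 window held 1 AP-2 form. Krt31 and Krt71 held TATAAA at −29 and −40 from the start site, and Krt8 held it at −1. The table gave 36 start windows for 35 of the 49 keratin genes. TATAAA was found in 18 of the 36 windows (50%), compared with 12.6% of 21263 windows of protein-coding genes, and in 12 of them it began between −31 and −26. The GC box was in 2 of 36 (5.56%) against 46.2%, the AP-2 form in 7 (19.4%) against 19.9%, the AP-1 form in 2 (5.56%) against 6.99%, and the homeodomain form in 0 against 0.362%. A match describes the letters and is no evidence of a bound factor.

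Among these windows, 12 overlapped a peak of both lists, 5 only an FM peak, 1 only a KO peak and 18 none. The window with only a KO peak (Krt36) and that of Krt10, with only an FM peak, lay at shared regions. There the peak of the other list ended short of the window. TATAAA was present in 2 of the 12 windows under peaks of both lists and in 12 of the 18 windows without a peak. Median GC content was 57.3% in those 12 windows and 46.7% in those 18, with 56.3% over all protein-coding windows. An FM peak covered 17 of 36 keratin windows (47.2%), compared with 67.4% of all windows, and a KO peak covered 13 (36.1%), compared with 64.8%.

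Krt8 and Krt18, which pair in the filaments of simple epithelia, lay in a block of significant peaks in both lists. Over the 35.3 kb from Krt8 to Krt18, the FM list had 10 peaks, of which 7 reached −log10 q of 10, and the KO list had 11, of which 10 did. Over the whole lists 24.1% of FM and 29.4% of KO peaks did. Inside Krt8, near its start site, the FM list had a peak of fold 3.02 and −log10 q 41.2 (chr15:102002867-102003892). The KO list had one of fold 3.55 and −log10 q 71.0 over nearly the same span. At the Krt8 start itself both lists had a weaker peak, with fold 1.76 in FM and 1.95 in KO and summits 60 and 52 bp upstream. At the Krt18 start the fold was 2.44 (−log10 q 19.7) in FM and 2.52 (25.8) in KO. These peaks were thus found in both lists, and all but that at the Krt8 start in FM reached −log10 q of 10.

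Between Krt8 and Krt18 3 shared regions lay 10.1 to 11.9 kb from the nearer gene. The strongest of them, at chr15:102017568-102018356, had fold 2.94 and −log10 q 32.0 in FM, and 3.75 and 80.8 in KO. Another, 2.69 kb (FM) or 2.88 kb (KO) from Krt18, had fold 2.30 in FM and 3.00 in KO. Beyond Krt18, the peak of highest fold among all keratin members in each list lay at chr15:102051925-102052639, with fold 4.44 (−log10 q 48.1) in FM, and had fold 4.94 (81.4) in KO. Its summit was 20.2 kb from Krt18 and 21.5 kb from Eif4b, a translation factor gene, so its assignment to a keratin rests on a small margin. The shared peak 2.87 kb (FM) or 2.80 kb (KO) past Krt18 was near the detection limit in FM (fold 1.52, −log10 q 1.5) and stood at fold 2.82 and −log10 q 20.6 in KO. Krt18 had 1 FM-specific, 0 KO-specific and 8 shared regions, and Krt8 had 0, 1 and 5. Over all regions 43.6% were FM-specific, 16.0% KO-specific and 40.5% shared, and on chromosome 15 the shares were 28.5%, 28.6% and 42.8%.

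**Figure D1:**
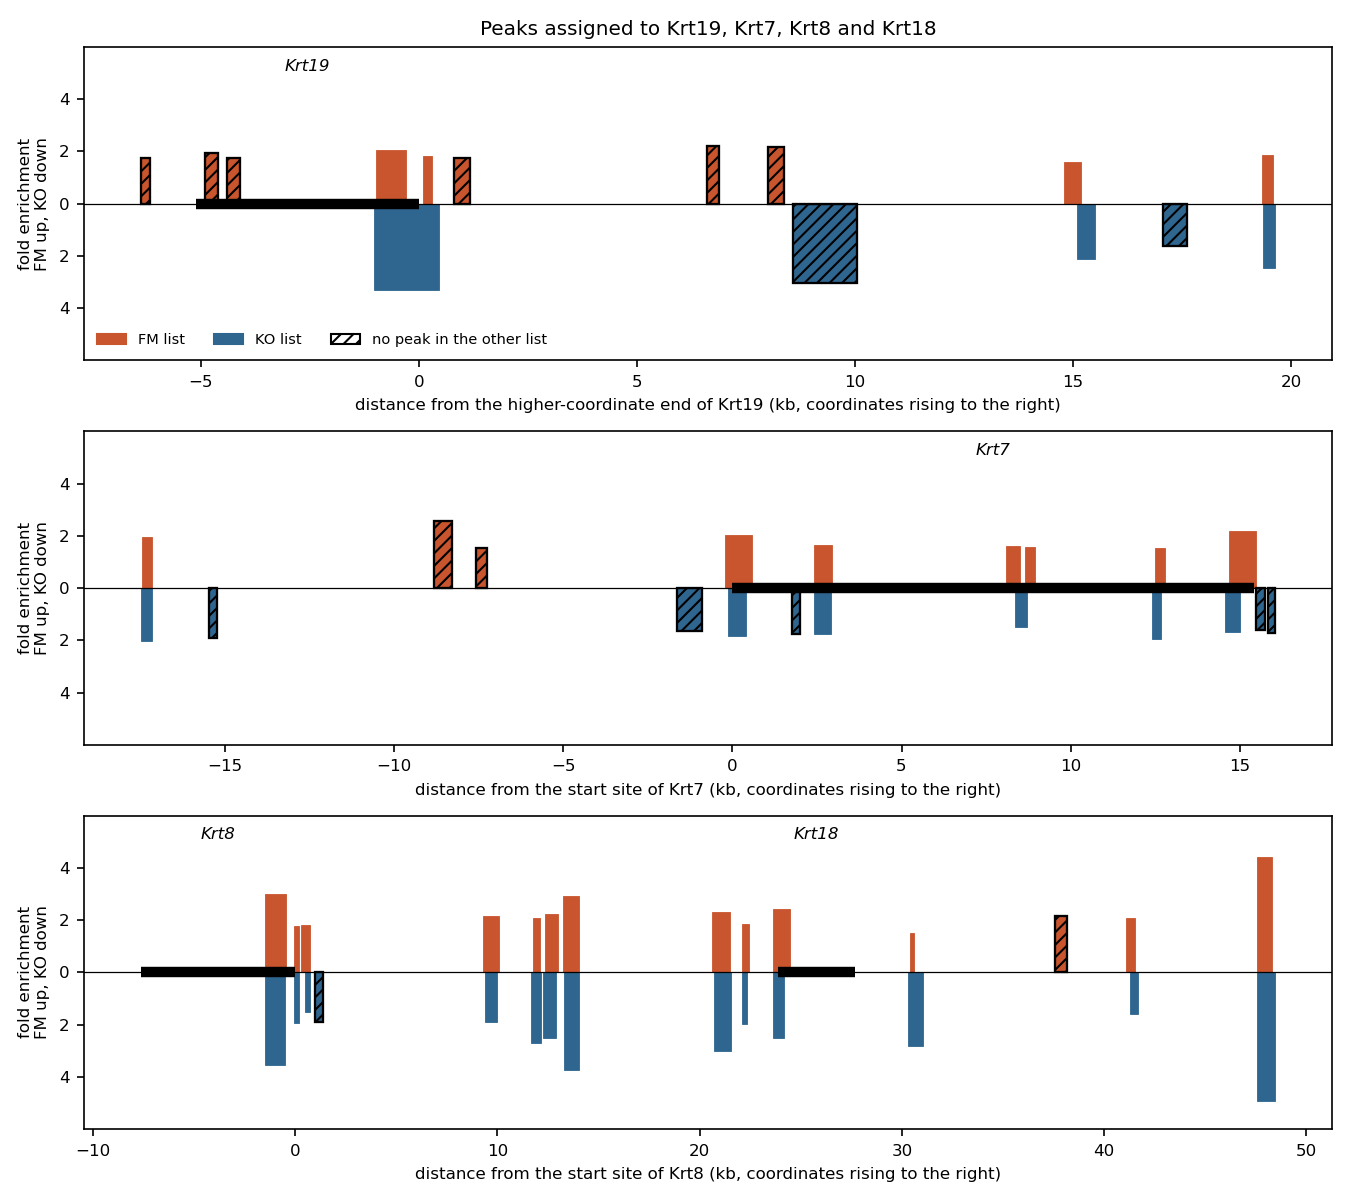
Peaks assigned to Krt19 (top), Krt7 (middle) and Krt8 with Krt18 (bottom), by distance in kb, with fold enrichment upward for FM and downward for KO. Bars span each peak, black lines are the genes and hatched bars have no peak in the other list. Most bars at Krt8 and Krt18 are paired, with folds up to 4.44 in FM and 4.94 in KO, and the wide hatched KO bar beside Krt19 reaches 3.03.

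Krt7, a type II keratin of ducts and glands, had lower peaks. At its start site the fold was 2.02 (−log10 q 8.62) in FM and 1.82 (7.04) in KO, and the summits lay 180 and 52 bp downstream of the start. The FM list had a peak 8.46 kb upstream at chr15:101403583-101404108 (fold 2.55, −log10 q 11.9) that overlapped no KO peak. The 5 KO-specific regions at Krt7 were all weak, with −log10 q of at most 6.33. The gene had 6 shared, 2 FM-specific and 5 KO-specific regions, and its KO-specific count was matched only by Krt2 in this cluster.

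Krt19, the smallest keratin and a marker of simple and ductal epithelia, differed in form between the lists. Near its end of higher coordinate the FM list had 2 separate peaks, of fold 2.05 (chr11:100144951-100145643, −log10 q 9.75) and 1.83 (5.98). The KO list had a single peak of 1498 bp over both, with fold 3.31 and −log10 q 36.1. A second KO peak, at chr11:100154515-100155962 and 8.97 kb from the gene, had fold 3.03 and −log10 q 20.5 and overlapped no FM peak. An FM-specific peak with its summit 8.24 kb from the gene (chr11:100153940-100154296) had fold 2.19 and −log10 q 7.51. A shared peak 19.5 kb away had fold 1.88 in FM and 2.45 in KO. None of the 10 FM peaks at Krt19 reached −log10 q of 10, and 3 of the 5 KO peaks did. By count the gene leaned the other way, with 6 FM-specific, 2 KO-specific and 3 shared regions. On chromosome 11, 44.1% of regions were FM-specific, 13.3% KO-specific and 42.6% shared.

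Taken as a group, Krt7, Krt8, Krt18 and Krt19 had 33 FM and 30 KO peaks. Of these, 9 (27.3%, exact binomial interval 13.3 to 45.5) and 8 (26.7%, 12.3 to 45.9) had no peak in the other list. The shares over all peaks were 50.8% in FM and 27.5% in KO. On chromosome 15 they were 38.7% and 39.1%, and on chromosome 11, where Krt19 lies, 49.7% and 23.0%. Peaks with −log10 q of at least 10 were 9 of 33 (27.3%) in FM, and 15 of 30 (50%) in KO, beside the 24.1% and 29.4% of the whole lists. Most of them lay at Krt8 (3 in FM, 5 in KO) and Krt18 (5 in FM, 7 in KO). Krt7 had 1 in FM and none in KO, and Krt19 none in FM and 3 in KO. Median −log10 q was 7.51 in FM and 9.45 in KO at the 4 genes. At the other 45 keratin genes it was 5.25 and 5.31. Intervals cover the counting of peaks only, and peaks of 1 gene are not independent.

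**Figure D2:**
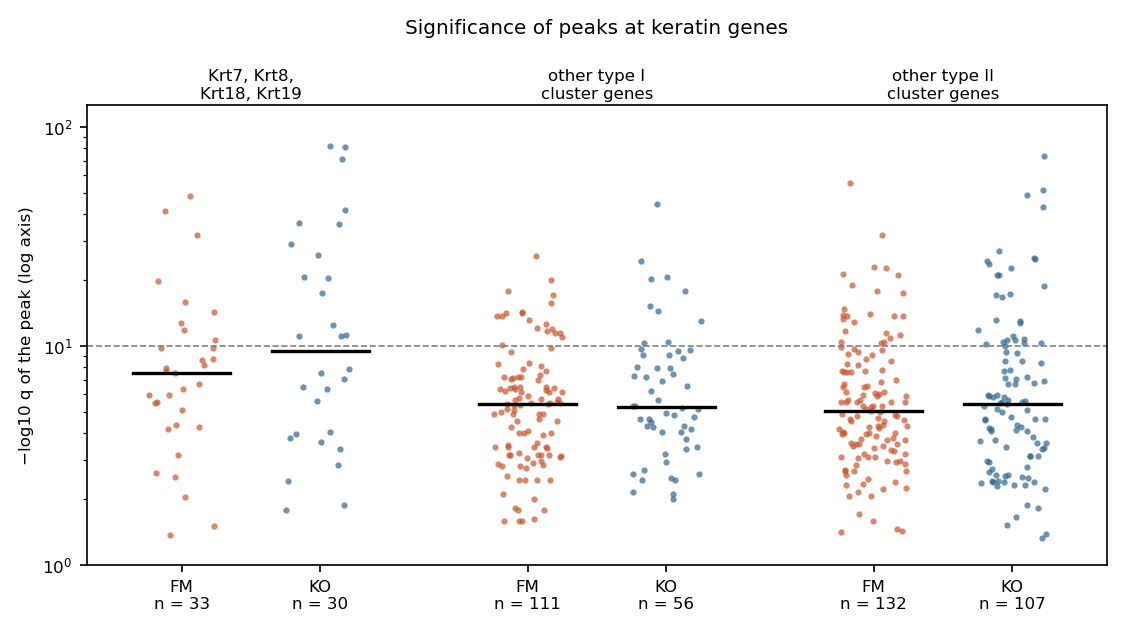
Each dot is a peak at a keratin gene, by its −log10 q on a log axis, for FM and KO in 3 gene sets. Black lines are medians and the dashed line is −log10 q of 10, which 15 of 30 KO peaks at Krt7, Krt8, Krt18 and Krt19 and 9 of 33 FM peaks there reached.

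The type I cluster on chromosome 11, with 25 genes, had 121 FM and 61 KO peaks. Its 127 regions were 67 FM-specific, 11 KO-specific and 49 shared. FM-specific regions were thus 52.8% of the regions, against 44.1% on chromosome 11 and 43.6% over all, and KO-specific regions 8.66%, against 13.3% and 16.0%. Shared regions made up 38.6% (42.6% on chromosome 11, 40.5% over all). Of the FM peaks 55.4% had no KO counterpart (49.7% on the chromosome), and of the KO peaks 18.0% had no FM counterpart (23.0%). More FM-specific than KO-specific regions were found at 20 of the 25 genes, an equal number at 5 and fewer at none. This count was not made for other genes. Of the specific regions, 85.9% were FM-specific in the cluster, 76.8% on chromosome 11 and 73.2% over all. With −log10 q of 5 or more in both lists, 44 regions were FM-specific, 13 KO-specific and 21 shared. On chromosome 11, 45.7% were then FM-specific and 13.9% KO-specific. With lists of equal length, the 50000 peaks of lowest p-value from each, 9 regions were FM-specific, 9 KO-specific and 10 shared. The chromosome then had 28.6% FM-specific and 22.5% KO-specific regions. In both settings the KO-specific share of the cluster was above that of the chromosome, whereas in the full lists it was below.

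The type II cluster on chromosome 15, with 24 genes, had 155 FM and 132 KO peaks. Its 188 regions were 57 FM-specific (30.3%), 38 KO-specific (20.2%) and 93 shared (49.5%). The FM-specific share was close to that of the whole chromosome (28.5%), and the KO-specific share was lower (28.6% on the chromosome). Shared regions made up 42.8% of the chromosome. Of the FM peaks 36.8% were specific (38.7% on the chromosome), and of the KO peaks 28.8% (39.1%). FM-specific regions were in excess at 12 genes, KO-specific ones at 7 and neither at 5, a count not made for other genes. Of the specific regions, 60% were FM-specific in the cluster and 49.9% on the chromosome. With −log10 q of 5 or more there were 34 FM-specific, 26 KO-specific and 49 shared regions, beside 30.9% FM-specific and 28.6% KO-specific on the chromosome. With 50000 peaks from each list the order turned to 7 FM-specific and 20 KO-specific regions, with 26 shared. The chromosome then had 16.3% FM-specific and 40.1% KO-specific.

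**Figure D3:**
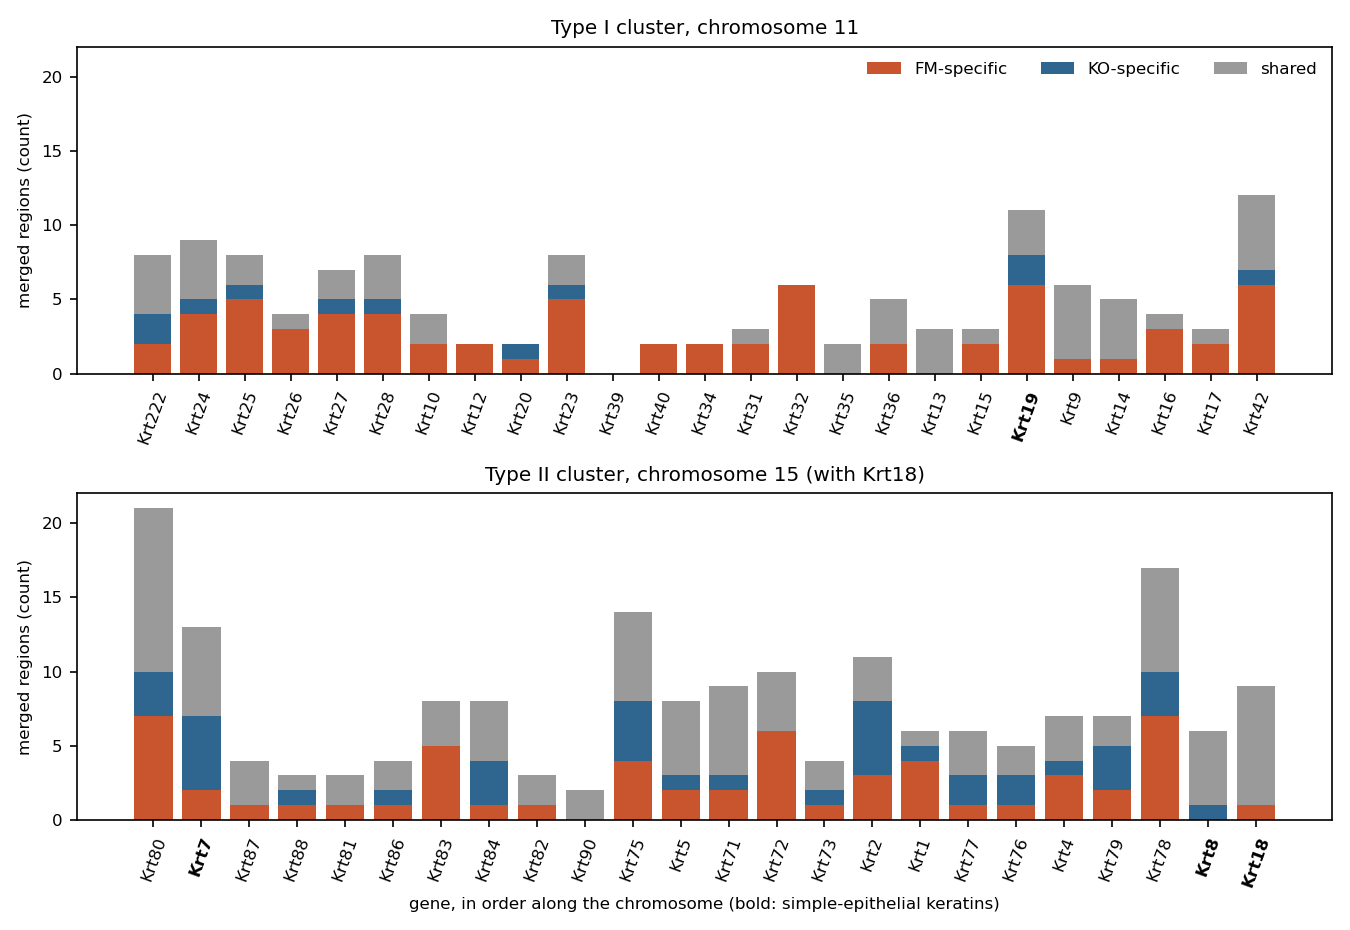
Merged regions assigned to each keratin gene in chromosomal order, split into FM-specific, KO-specific and shared. FM-specific regions number 67 in the type I cluster beside 11 KO-specific ones, and 57 beside 38 in the type II cluster. Krt80 has the most regions and Krt39 none.

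Gene ends differed between the clusters. In the type I cluster, 19 of 25 genes (76%) had an FM summit within 1 kb of a gene end. A KO summit was there at 10 (40%), all among the 19. Over all protein-coding genes the shares were 71.9% in FM and 69.0% in KO, and on chromosome 11 they were 84.6% and 78.9%. The 9 genes with an FM end summit only were Krt12, Krt16, Krt17, Krt20, Krt23, Krt27, Krt28, Krt32 and Krt36, with folds of 1.57 to 2.39 and −log10 q of at most 9.38. The 6 with none were Krt25 and the hair genes Krt31, Krt34, Krt35, Krt39 and Krt40. In the type II cluster, 22 of 24 genes (91.7%) had an FM and 20 (83.3%) a KO end summit, beside 86.7% in each list on chromosome 15. Krt76 and Krt78 had one in FM only, and Krt73 and Krt83 in neither. Ends are those of the annotated span, which for some genes reaches beyond the listed start site, such as Krt2, Krt10, Krt12, Krt14, Krt36 and Krt78. At the listed Krt78 start both lists had a shared peak (fold 1.94 in FM, 1.81 in KO). Over the Krt36 start window the KO list had a peak (fold 1.67) and the FM list none, but the region was shared. The overlapping FM peak (fold 1.97) ended outside that window. Keratin end peaks were low. Their median fold was 2.12 in FM and 2.26 in KO, against 3.50 and 4.27 over all protein-coding genes with such a peak. With 50000 peaks from each list the type I genes with an end summit were 5 in FM and 7 in KO, and the type II genes 7 and 10, where 60.6% of all protein-coding genes kept one in each list.

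**Figure D4:**
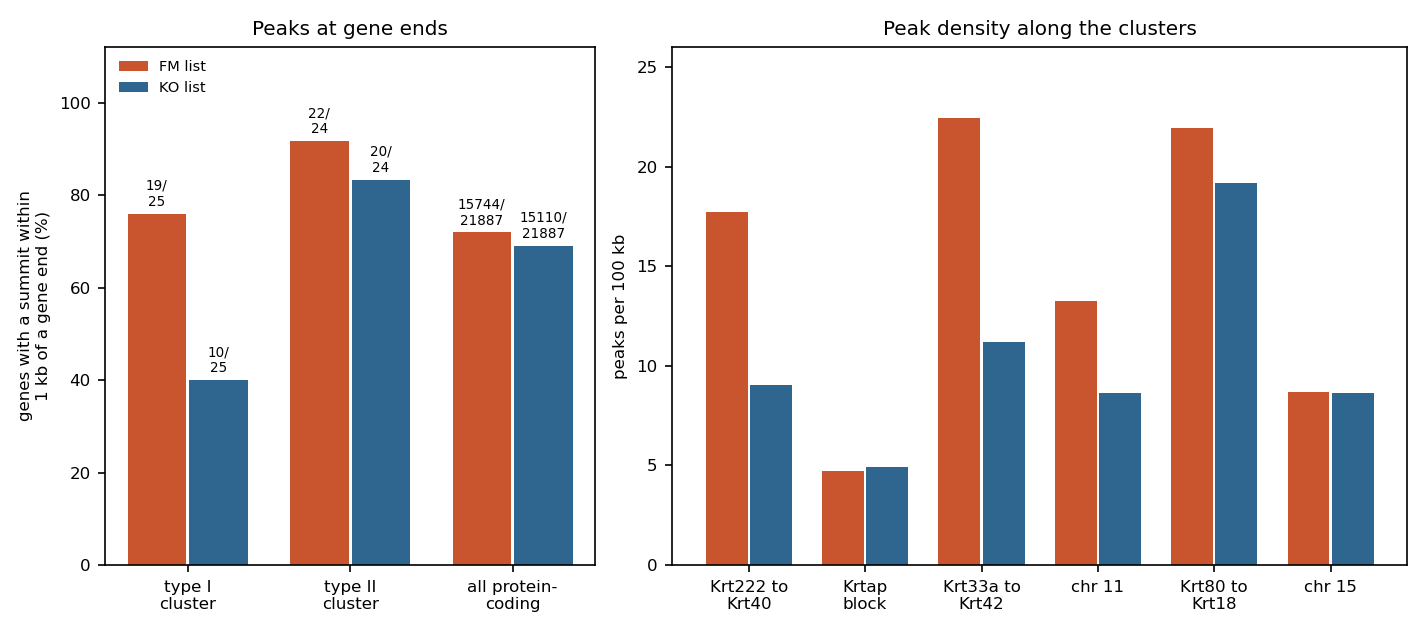
Left, the percentage of genes with a summit within 1 kb of a gene end in the type I cluster, the type II cluster and all protein-coding genes (FM and KO bars, with counts). Right, peaks per 100 kb along the clusters and over chromosomes 11 and 15. The block of keratin-associated protein genes (Krtap) has 4.70 FM and 4.91 KO peaks per 100 kb, below its flanks.

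Peak density also changed along the type I locus. From Krt222 to Krt40 there were 17.7 FM and 9.02 KO peaks per 100 kb, and from Krt33a to Krt42 22.4 and 11.2. The 468 kb between them hold 38 genes, largely keratin-associated proteins of the hair matrix, and had 4.70 FM and 4.91 KO peaks per 100 kb. Chromosome 11 had 13.3 and 8.65. The block held 22 FM and 23 KO peaks. The type II locus had 21.9 FM and 19.2 KO peaks per 100 kb, with 8.68 and 8.63 over chromosome 15.

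Epidermal basal keratins had modest peaks. Krt5 and Krt14, the pair of the basal layer, and Krt15 had 5 FM-specific (31.2%), 1 KO-specific (6.25%) and 10 shared regions (62.5%), beside 43.6%, 16.0% and 40.5% over all regions. The shares were 28.5%, 28.6% and 42.8% on chromosome 15, where Krt5 lies. On chromosome 11, where Krt14 and Krt15 lie, they were 44.1%, 13.3% and 42.6%. At the Krt5 start the fold was 1.89 in FM and 1.77 in KO, and 2.79 kb away a stronger peak had 2.30 in FM and 2.38 in KO. The strongest FM peak at Krt14 lay 11.6 kb from the gene with fold 2.81 (−log10 q 13.7) and had 1.88 (3.47) in KO.

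Suprabasal keratins, made in differentiating epidermis, included higher peaks. Krt10, the type I partner of Krt1, had a peak near its end of lower coordinate (chr11:99385873-99386574) with fold 3.05 and −log10 q 17.0 in FM and 4.27 and 44.4 in KO. This was the highest fold in the type I cluster in both lists, and it lay inside the gene, downstream of the start site. Near the Krt10 start a second shared peak had fold 2.65 in FM and 1.77 in KO, the other order. Krt1 had an end peak of fold 2.54 in FM and 2.92 in KO, and an FM-specific peak 10.3 kb away (chr15:101834957-101835246, fold 2.75, −log10 q 13.3). At Krt2, of the upper epidermis, the end peak had fold 2.45 in FM and 2.91 in KO. Krt79 had a KO-specific peak at an end (chr15:101929670-101929906, fold 2.10, −log10 q 10.4). The 8 suprabasal genes had 27 FM-specific (34.6%), 17 KO-specific (21.8%) and 34 shared regions, beside 43.6% and 16.0% over all regions, and 28.5% and 28.6% on chromosome 15, where 6 of the 8 genes lie.

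Krt78 and Krt80 had many regions each. Peaks counted inside Krt78 included shared ones at chr15:101976936-101977927 (fold 2.61 in FM, 2.84 in KO) and chr15:101983348-101984704 (2.37 in FM, 3.24 in KO). The annotated span of Krt78 reaches nearly to Krt8, but these summits lay 23.2 and 29.8 kb (FM) upstream of the listed Krt78 start site and 19.2 and 12.7 kb from Krt8. With −log10 q of 22.8 in FM and 73.3 in KO, the second was the third most significant keratin peak of the KO list. Krt80, at the other edge of the cluster, had 7 FM-specific, 3 KO-specific and 11 shared regions, among them shared peaks 8.6 to 22.2 kb outside the gene with −log10 q up to 22.5 in FM and 25.3 in KO.

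Krt20 and Krt23, of intestinal and other simple epithelia, lacked the pattern of Krt8 and Krt18. Krt20 had an FM-specific peak at its start (fold 2.06) and a KO-specific one inside the gene (2.01). Krt23 had 5 FM-specific, 1 KO-specific and 2 shared regions, and its start peak was FM-specific (fold 2.34, −log10 q 8.05). The wound-response genes Krt16 and Krt17 had 5 FM-specific, 0 KO-specific and 2 shared regions. The FM-specific peak of highest fold at Krt16, 13.4 kb away, had fold 2.84 and −log10 q 14.1, and a shared peak 1.8 kb from Krt17 had 2.41 in FM and 2.77 in KO. Among Krt4, Krt12, Krt13 and Krt76, of the cornea and of internal stratified epithelia, the FM-specific, KO-specific and shared regions were 6 (35.3%), 3 (17.6%) and 8 (47.1%). Over all regions these shares were 43.6%, 16.0% and 40.5%. On chromosome 15, where Krt4 and Krt76 lie, they were 28.5%, 28.6% and 42.8%. They were 44.1%, 13.3% and 42.6% on chromosome 11, where the other genes of this paragraph lie outside the Krt8 and Krt18 pair.

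Among the hair lists, the follicle list had shares near those of all regions when its genes on chromosomes 11 and 15 were pooled. It held Krt25 to Krt28, Krt71 to Krt73 and Krt75, mostly of the inner root sheath. Krt24 was listed with them, though its place in the follicle was not checked here. These 9 genes had 33 FM-specific (45.2%), 10 KO-specific (13.7%) and 30 shared regions, where all regions had 43.6% and 16.0%. The 13 hair shaft genes had 24 (48%), 4 (8%) and 22. Genes of both lists lie on both chromosomes. FM-specific shares were 44.1% on chromosome 11 and 28.5% on chromosome 15, and KO-specific shares 13.3% and 28.6%. Krt32 had 6 FM-specific regions and no other, all with −log10 q of at most 4.97. Near Krt25 the KO list had a specific peak at chr11:99310754-99311048 (fold 2.59, −log10 q 15.1), and near Krt24 the FM list had one at chr11:99292875-99293144 (fold 2.84, −log10 q 14.1). Other FM-specific peaks past −log10 q of 10 lay 1.5 kb from Krt83 (fold 2.20) and 3.36 kb from Krt82 (fold 2.23). The shared end peak of Krt86 had fold 2.47 in FM and 2.93 in KO. Reads from near-identical hair keratin copies can be placed at the wrong copy, and no source used here states the mapping filter.

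Genes outside these roles held some of the strongest peaks. Krt88 had a shared end peak of fold 4.07 and −log10 q 55.1 in FM (chr15:101452505-101453802) and 3.76 and 51.4 in KO. Krt90 had a shared peak inside the gene (chr15:101558183-101558675) with fold 1.98 and −log10 q 8.29 in FM, and 3.28 and 43.1 in KO. Krt42, listed also under the name ecat6, had a peak outside its lower end, 0.571 kb (FM) or 0.612 kb (KO) away, with fold 2.72 in FM and 2.83 in KO, and an FM-specific peak 1.83 kb upstream of its start (fold 2.34, −log10 q 13.1). Krt222 had an end peak of fold 2.85 in FM and 2.77 in KO.

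Over all keratin genes, 52 of 276 FM peaks (18.8%) and 54 of 193 KO peaks (28.0%) reached −log10 q of 10. Specific peaks of this significance numbered 7 in FM, near Krt1, Krt7, Krt16, Krt24, Krt42, Krt82 and Krt83, and 4 in KO, near Krt8, Krt19, Krt25 and Krt79. They were 2.54% of the FM and 2.07% of the KO keratin peaks, and over the whole lists such peaks made up 2.99% in FM and 2.59% in KO.

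Genes of keratin attachment and epithelial control had a higher median end peak than the keratins, though below that of all protein-coding genes. Of the 23 genes listed, which include Vim for contrast, 22 had an end summit in FM and 20 in KO. Over all protein-coding genes 71.9% and 69.0% had one. The median fold of the listed genes was 3.32 and 3.67, beside 3.50 and 4.27 over all protein-coding genes. Jup, encoding the desmosome protein plakoglobin, had 5.03 in FM and 6.07 in KO, and Dsp, encoding desmoplakin, had 4.39 and 4.18. Pkp2, a desmosomal plaque gene, had 7.33 and 6.27. Klf5, an epithelial transcription factor gene, had 7.04 and 8.44, and Epcam, an adhesion gene, had 3.36 and 3.73. The mesenchymal filament gene Vim had 4.84 and 5.19. At the low end, Plec, encoding the filament linker plectin, had 1.87 in FM and 1.75 in KO, the transcription factor gene Tfap2a had 2.01 and 1.72, and Ovol1, another such gene, had 1.72 and 1.85. Trp63 had no end summit in either list. Pkp3 and Tfap2c had an end summit in FM only (fold 2.15 and 1.65). At the 23 genes 192 regions were FM-specific (39.8%), 83 KO-specific (17.2%) and 208 shared (43.1%), close to the 43.6%, 16.0% and 40.5% of all regions.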

How the data were processed

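Chromatin accessibility had been measured by ATAC-seq in 3 libraries of Mixl1-induced and 3 of Mixl1 knockout cells, each from 50000 cells with 11 PCR cycles, per the labels' protocols. The labels do not say whether the libraries of a group came from separate cultures. The submitters' processing notes name MACS2, Bowtie2, SAMtools and bcl2fastq, with mm10 as build. For versions, read filters, Tn5 shifting and the way libraries were combined, nothing is given in the sources used here. Each peak row deposited by the authors held a fold (ratio) over local background, −log10 of the p-value and q-value, a score (the −log10 q on a larger scale) and the summit offset. The lowest −log10 q in each list was 1.30, so the lists ended at a q of 0.05.

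Rows of 1 peak with several summits were reduced to that of lowest p-value, and peaks on assembled chromosomes were kept. Summits were assigned to the nearest protein-coding gene of a RefSeq table (GRCm38.p6), and regions of the merged lists by the summit of their lowest p-value. Strand and start sites came from the RefSeq promoter table, where a gene was listed. Genes named are Krt7, Krt8, Krt18, Krt19, others with a summit within 1 kb of an end or a peak of −log10 q of at least 10, and those with most specific regions in a cluster. This rule admitted 43 of the 49 genes, and those described were taken from it by role. The other 6 (Krt31, Krt34, Krt35, Krt39, Krt40 and Krt73) were named after their values were seen. Members and lists were chosen with earlier results of these data known. No test between groups was made. Shares have exact (Clopper-Pearson) intervals at 95%. Overlap and assignment were tested on simulated data. Python 3.11.15, numpy 2.4.6, pandas 2.3.3 and scipy 1.17.1 were used.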

Additional observations from a re-analysis of the deposited data

How the results depend on the processing

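No paired analysis was possible because each group has a single peak list, and for the same reason no replicate could be left out. Of 88 recounts under 8 alternatives, 68 stayed within 1.5 times the reported count. Those that moved further came from only some alternatives. Of 11 counts each, 7 moved with −log10 q of 5 or more, 9 with 50000 peaks per list and 4 with the nearest gene of any biotype. When both lists were limited to −log10 q of 5 or more, 151 FM and 109 KO peaks remained. Type I regions were then 44 FM-specific, 13 KO-specific and 21 shared, and type II regions 34, 26 and 49. Those at Krt7, Krt8, Krt18 and Krt19 were 10, 8 and 13. With the 50000 peaks of lowest p-value from each list, 52 FM and 65 KO peaks remained. Type I regions were 9 FM-specific, 9 KO-specific and 10 shared, and type II regions 7, 20 and 26. The 4 simple-epithelial genes had 1 FM-specific, 7 KO-specific and 8 shared regions. The excess of FM-specific over KO-specific regions in the clusters thus stayed with the limit on q. With lists of equal length it was lost in the type I cluster and turned in the type II cluster. At the 4 genes, 9 FM-specific and 8 KO-specific regions in the full lists became 1 and 7 with lists of equal length. The KO-specific share of type I regions was below that of chromosome 11 in the full lists and above it in both settings. The cause was not tested. In both settings fewer peaks enter, and a specific region can overlap a weaker peak left out of the other list. Counting the nearest gene of any biotype gave 6 KO-specific and 30 shared type I regions, and 4 KO-specific and 13 shared regions at the 4 genes, since regions nearest to a gene of another biotype leave the count. An overlap of 50%, a limit of 20 kb, distance from the peak edge, every summit row and symbols with a trailing letter changed no count beyond 1.5 times. In an alternative chosen after seeing the data, end summits with 50000 peaks were found at 5 type I genes in FM, and at 7 type II genes in FM and 10 in KO.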

Other observations

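Keratin genes whose symbols end in a letter were outside the membership rule. Krt33b had 2 FM-specific regions and no KO peak, and Krt33a had 2 shared regions. Krt6a had 1 FM-specific and 1 shared region, and Krt6b had 2 KO-specific and 1 shared region.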
